A study of Mus musculus with 12 samples.

Results

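The guide strands of the let-7 family were followed in mouse quadriceps from birth to adulthood. They comprise the 5p arms let-7a-5p, let-7b-5p, let-7c-5p, let-7d-5p, let-7e-5p, let-7f-5p, let-7g-5p and let-7i-5p, together with miR-98-5p, which carries the same seed. These 9 members were taken by name (mmu-let-7a-5p, mmu-let-7b-5p, mmu-let-7c-5p, mmu-let-7d-5p, mmu-let-7e-5p, mmu-let-7f-5p, mmu-let-7g-5p, mmu-let-7i-5p and mmu-miR-98-5p) from a table of 1966 mature miRNAs, and all 9 were measured in every library and passed the filter on low counts. The quadriceps came from wild-type C57BL/6J mice at postnatal day 1 (P1), day 5 (P5), day 14 (P14) and day 90 (P90, adult), with no treatment named in the labels. Small RNA was sequenced in 3 libraries per age, which gave 12 libraries in all. RNA was taken from 3 mice at each age according to the methods, and the 3 libraries of an age were read as separate mice, although no label ties a library to an animal.

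The let-7 miRNAs were first described as developmental timing factors in worms, and in mammals they accumulate as cells leave the embryonic programme. A miRNA is cut from a hairpin, and its guide strand is loaded into an Argonaute protein, where the seed pairs with target mRNAs. In early cells the proteins LIN28A and LIN28B bind let-7 precursors and block their processing, and mRNAs that carry let-7 sites, such as those of HMGA2, MYC and RAS genes, are kept low in mature tissue by the family. Because the members share the seed, they are expected to bind many of the same mRNAs, and they differ mainly in the bases behind it and in the locus that encodes them.

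The mature sequences (RefSeq, GRCm38.p6) are shown because the members that moved together across the ages can be read against the positions at which they differ. Each is written 5′ to 3′, and the capitals mark the seed, bases 2 to 8.

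let-7a-5p: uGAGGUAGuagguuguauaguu

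let-7b-5p: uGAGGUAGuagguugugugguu

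let-7c-5p: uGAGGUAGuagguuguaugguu

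let-7d-5p: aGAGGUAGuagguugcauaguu

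let-7e-5p: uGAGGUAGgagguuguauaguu

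let-7f-5p: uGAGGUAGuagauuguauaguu

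let-7g-5p: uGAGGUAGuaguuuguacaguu

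let-7i-5p: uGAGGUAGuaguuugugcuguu

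miR-98-5p: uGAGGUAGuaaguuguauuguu

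All 9 guide strands were 22 bases long, so they do not differ in length. Whether read levels of different members are comparable in other respects was not tested. With positions counted from the 5′ end and let-7a-5p as the reference, let-7c-5p differed by A19G, let-7b-5p by A17G and A19G, let-7e-5p by U9G, and let-7d-5p by U1A and U16C. In the other 4 members a base at position 11 or 12 was changed: let-7f-5p differed by G12A, let-7g-5p by G12U and U18C, miR-98-5p by G11A and A19U, and let-7i-5p by G12U, A17G, U18C and A19U. GC content ran from 31.8% in let-7f-5p and miR-98-5p to 45.5% in let-7b-5p. In the table, 2 further names shared the seed, let-7k with 9 counts and miR-1961 with 2 counts over all libraries, and neither was tested.

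The 9 guide strands are encoded by 12 hairpins (RefSeq coordinates, GRCm38.p6), whose host genes were read from GENCODE. On the minus strand of chromosome 13 lie let-7d (chr13:48536012-48536114), let-7f-1 (chr13:48537829-48537917) and let-7a-1 (chr13:48538179-48538272), in exons of the lncRNA 6720427I07Rik. The plus strand of chromosome 15 holds let-7c-2 (chr15:85706603-85706697) and let-7b (chr15:85707319-85707403), in exons of the lncRNA Lncppara. On the X chromosome, introns of the ubiquitin ligase gene Huwe1 carry let-7f-2 (chrX:151912346-151912428, plus strand) and miR-98 (chrX:151913214-151913321, plus strand). The let-7a-2 hairpin (chr9:41536716-41536811, plus strand) lies in an intron of Mir100hg between miR-100 and miR-125b-1, and let-7c-1 (chr16:77599657-77599750, plus strand) follows miR-99a in an intron of Mir99ahg. An intron of Spaca6 holds let-7e (chr17:17830352-17830444, plus strand), with miR-125a 367 bases downstream. The remaining members stand alone: let-7g (chr9:106178840-106178927, plus strand) in an intron of Wdr82, and let-7i (chr10:122985640-122985724, minus strand) in an exon of the lncRNA Gm63655. Reads of let-7a-5p, let-7c-5p and let-7f-5p can each come from 2 hairpins, which the mature sequence does not separate.

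Library totals ranged from 20363495 to 53126984 counts, and the lowest count of any member in any library was 5723. Counting error was therefore small beside the spread between libraries. The composition of the P90 libraries differed from the others, because miR-1a-3p and miR-1b-5p, muscle miRNAs, held 79.6% to 85.3% of their counts, compared with 24.2% to 46.3% at the other ages. Levels below are normalized CPM, relative to a library size scaled by TMM, a factor that was 0.247 to 0.384 in P90 libraries and 1.235 to 1.725 elsewhere, and the direction of a change towards P90 depended on this scaling. All 4 muscle marker miRNAs (miR-1a-3p, miR-133a-3p, miR-206-3p and miR-499-5p) were detected at every age. They did not move together from P1 to P90. On the log2 scale miR-1a-3p changed by 3.44 and miR-133a-3p by 3.48, but miR-206-3p by -3.78 and miR-499-5p by -3.99. The authors list miR-499, with no arm named, with a positive log2FC over muscle development. That sign is opposite to the one of miR-499-5p here, and the reason for the difference was not tested. The summed level of 2 endothelial markers was 3353 to 4367 CPM at P1 and 9661 to 12990 CPM at P90, and that of 2 smooth muscle markers was 16760 to 19740 CPM and 57060 to 73287 CPM. In such whole-muscle RNA, a change in the number of cells of a type and a change in RNA per cell cannot be told apart, and the part of the vascular cells in the let-7 levels was not tested.

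The family was abundant at all ages. By mean share of counts over the 12 libraries, let-7f-5p ranked 7 and let-7a-5p ranked 8 among all miRNAs, and the least abundant member, miR-98-5p, ranked 111. Together the 9 guide strands held 7.39% ± 0.579 of the counts at P1 and 7.56% ± 0.320 at P5, then 10.4% ± 1.06 at P14 and 2.56% ± 0.473 in the adult at P90 (SD, n = 3 at each age). When miR-1a-3p and miR-1b-5p were left out of the totals, the share was 11.9% ± 0.219 at P1 and 13.8% ± 0.370 at P5, then 15.0% ± 0.978 at P14 and 14.4% ± 0.354 in the adult. Thus the P90 share was below that of every younger library in the whole count, and above that of every P1 and P5 library in the count without miR-1. The summed normalized level was 46886 CPM ± 1249 at P1 and 59180 ± 1128 at P5, and reached 67441 ± 6904 at P14 and 78641 ± 5709 in the adult.

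**Figure D1:**
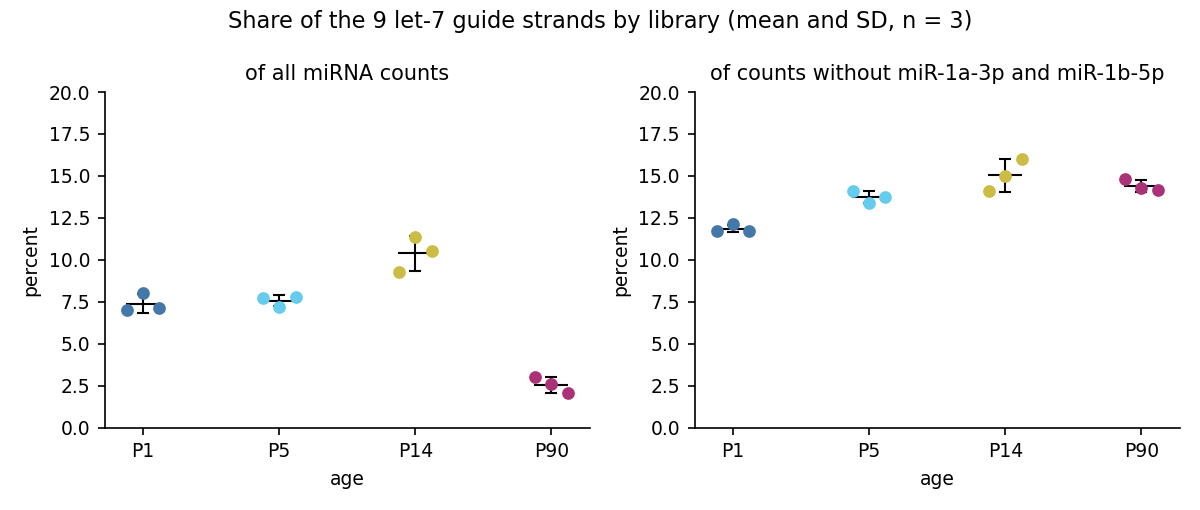
Share of the 9 let-7 guide strands in each library (points, percent on the vertical axis) by age, with mean and SD (dash and bars, n = 3). In the left panel, over all miRNA counts, the P90 libraries lie between 2.08% and 3.03%, under all others, whereas in the right panel, without miR-1a-3p and miR-1b-5p, they lie between 14.2% and 14.8%.

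The members divided into those whose mean level was highest at P14 and those whose mean level was lowest there. Let-7a-5p, encoded on chromosomes 13 and 9, belonged to the former, with levels of 8522, 9158 and 9214 CPM at P1, 12765, 12015 and 11810 CPM at P5, 16243, 19457 and 21458 CPM at P14 and 15141, 12318 and 13211 CPM at P90. Let-7b-5p had 1009, 1031 and 1050 CPM at P1, 1886, 1694 and 1711 CPM at P5, 3992, 5837 and 5400 CPM at P14 and 2797, 1988 and 1973 CPM at P90. Let-7c-5p, which shares a locus with let-7b-5p, had 4429, 4780 and 4242 CPM at P1, 7065, 6455 and 6865 CPM at P5, 12191, 15988 and 16653 CPM at P14 and 10055, 6933 and 7263 CPM at P90. For these 3 members every P14 library was above every library of the other ages, and every P5 library was above every P1 library. Among the P90 libraries, replicate 1 was the highest for each of the 3.

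Let-7d-5p was also highest on average at P14 but stood near that level in the adult. Its levels were 2100, 2042 and 2127 CPM at P1, 2964, 2585 and 2697 CPM at P5, 3834, 4184 and 4544 CPM at P14 and 4266, 3242 and 3764 CPM at P90, and the last 2 ages overlapped. Let-7e-5p, the member of the Spaca6 locus, had 628, 766 and 687 CPM at P1, 912, 728 and 745 CPM at P5, 963, 1159 and 1264 CPM at P14 and 540, 428 and 477 CPM at P90. It was thus the only member whose 3 P90 libraries all lay below all libraries of P1, P5 and P14.

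The opposite course at P14 was seen for the remaining members. Let-7f-5p had 14009, 13236 and 13576 CPM at P1, 17630, 17595 and 17422 CPM at P5, 11585, 8892 and 12776 CPM at P14 and 24733, 25710 and 31231 CPM at P90. Let-7g-5p, from the Wdr82 intron, had 7749, 7278 and 6845 CPM at P1, 8534, 8739 and 8689 CPM at P5, 6953, 5650 and 6877 CPM at P14 and 13691, 14888 and 16934 CPM at P90. Both reached their highest levels in the adult, above all other libraries. Let-7i-5p had 8801, 8506 and 7209 CPM at P1, 8065, 7831 and 8259 CPM at P5, 5389, 4561 and 5704 CPM at P14 and 6958, 6723 and 8578 CPM at P90. MiR-98-5p had 595, 548 and 522 CPM at P1, 608, 599 and 672 CPM at P5, 267, 205 and 298 CPM at P14 and 613, 626 and 839 CPM at P90. For both, the P14 libraries were below all others, and the P90 range overlapped that of an earlier age.

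**Figure D2:**
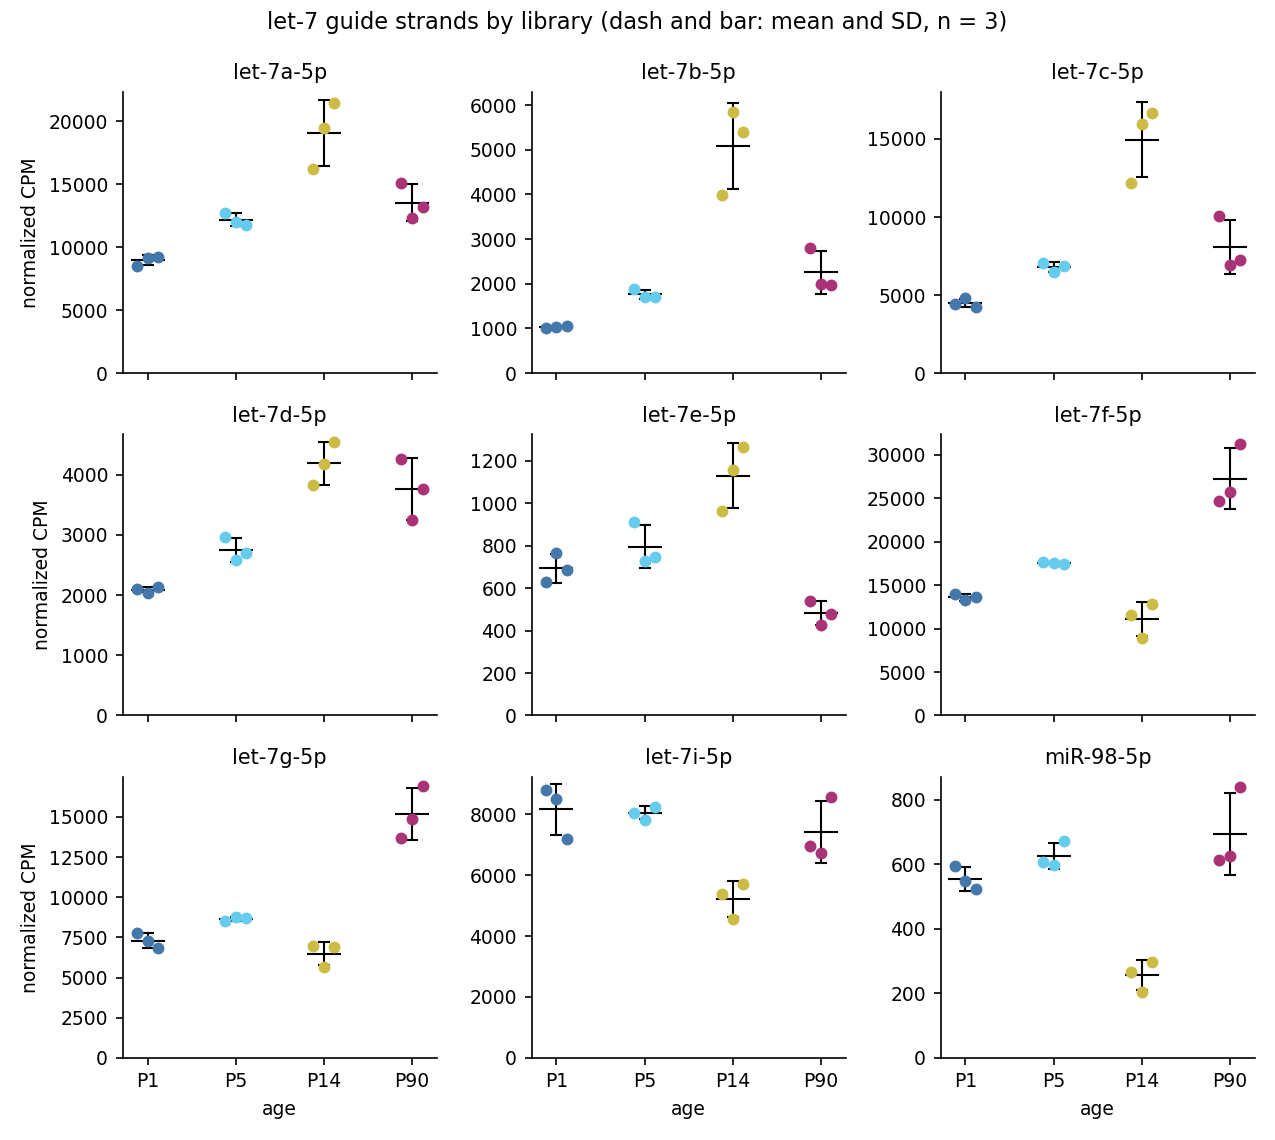
Normalized CPM of each let-7 guide strand (vertical axis from 0, own scale in each panel) in the 12 libraries by age, with mean and SD (n = 3). Let-7a-5p, let-7b-5p and let-7c-5p peak at P14, let-7f-5p and let-7g-5p are highest at P90, and let-7i-5p and miR-98-5p are lowest at P14.

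The order of the members by read level changed with age, with no removal of the trend over GC content described below. Let-7f-5p was the most abundant member at P1, P5 and P90, with no overlap with the next member, while at P14 let-7a-5p and let-7c-5p were the highest and their ranges overlapped, as did those of let-7c-5p and let-7f-5p. At P1 let-7a-5p, let-7i-5p and let-7g-5p followed let-7f-5p, and neighbours in this order overlapped. At P90 let-7g-5p and let-7a-5p overlapped in second place, then let-7c-5p and let-7i-5p. MiR-98-5p was the lowest member at P1, P5 and P14, and let-7e-5p was the lowest at P90. Over the 12 libraries, log2 levels of let-7b-5p and let-7c-5p had a Pearson r of 0.995, those of let-7a-5p and let-7c-5p of 0.988, those of let-7f-5p and let-7g-5p of 0.975 and those of let-7i-5p and miR-98-5p of 0.913. Values for let-7b-5p with let-7i-5p (r = -0.863) and let-7e-5p with let-7g-5p (r = -0.846) were the lowest. These correlations describe libraries that fall into 4 ages and share one scaling.

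Differences between ages were tested in one edgeR quasi-likelihood model over all 12 libraries, with Padj over the 809 miRNAs tested. Across the 4 ages all 9 members changed, the largest Padj being 0.0015 for let-7i-5p, where 72.4% of all miRNAs tested were called. The direction of change was then examined for each step and for the adult against the newborn.

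From P1 to P5, the first days after birth, let-7b-5p and let-7c-5p rose and no other member passed the test. Let-7b-5p rose with a log2FC of 0.78 (SE 0.16, Padj = 0.016) and let-7c-5p with 0.60 (SE 0.16, Padj = 0.039). These 2 of 9 members stand beside 4.45% of all miRNAs called in this comparison, and 2.72% called higher. Let-7a-5p had a log2FC of 0.44 (SE 0.13, Padj = 0.062), let-7d-5p of 0.40, let-7f-5p of 0.37, let-7g-5p of 0.25, let-7e-5p of 0.20, miR-98-5p of 0.17 and let-7i-5p of -0.02. Against 1.73% of all miRNAs, no member was called lower with edgeR, at an unadjusted P under 0.05 either (0 members), or with DESeq2 (0 members). On the TMM scale, the P5 libraries were all above the P1 libraries for 7 members, whereas this held for 16.4% of the miRNAs tested. In CPM of the library totals alone it held only for let-7b-5p, and let-7i-5p was lower in all P5 libraries. As a share of the summed guide counts it held for let-7b-5p and let-7c-5p, while let-7g-5p, let-7i-5p and miR-98-5p were lower. The median log2FC of the members was 0.37, and that of all miRNAs tested was 0.01. The let-7b-5p call was lost without P1 replicate 1 (0.74) or 2 (0.76) or P5 replicate 1 (0.72) or 3 (0.79), and the let-7c-5p call was lost without any single P1 or P5 library and without P14 replicate 1 or 3 (0.55 to 0.63). With the GC trend described below removed, let-7b-5p remained called (0.77) and let-7c-5p did not (0.58, Padj = 0.074). Without P90 replicate 1 or 2, let-7a-5p was called as well (0.43). Neither call therefore held in all 12 fits that left out a library, and with 5 members called higher by DESeq2, beside 44 of 1542 miRNAs, the number of calls depended on the test.

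From P5 to P14 the family split. Let-7b-5p rose the most, with a log2FC of 1.53 (SE 0.16, Padj = 2.7e-06), followed by let-7c-5p with 1.14 (SE 0.16, Padj = 2.7e-05), let-7a-5p with 0.64 (SE 0.13, Padj = 0.00070), let-7d-5p with 0.61 (SE 0.13, Padj = 0.0011) and let-7e-5p with 0.51 (SE 0.15, Padj = 0.012). MiR-98-5p had the largest fall, by 1.29 on the log2 scale (SE 0.16, Padj = 1.3e-05), and let-7f-5p fell by 0.66 (SE 0.14, Padj = 0.0012), let-7i-5p by 0.63 (SE 0.13, Padj = 0.0014) and let-7g-5p by 0.41 (SE 0.12, Padj = 0.012). All 9 members were thus called, 5 higher and 4 lower, whereas 44.4% of all miRNAs were called (18.0% higher and 26.3% lower). The ranges of the 2 ages did not overlap for any member, which was so for 54.4% of the miRNAs tested. The call of let-7e-5p was lost without P5 replicate 3 (0.43) or P14 replicate 3 (0.38), or with no filter on low counts (0.40), and that of let-7g-5p when libraries were scaled by their totals alone (-0.15) or by the upper quartile (-0.14). Once a trend of levels over GC content, described below, was removed, neither let-7f-5p (-0.00077, Padj = 0.996) nor let-7g-5p (0.065, Padj = 0.69) passed, and 5 members were called higher (15.7% of all miRNAs) and 2 lower (26.3%).

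From P14 to P90 the split was inverted. MiR-98-5p rose with a log2FC of 1.43 (SE 0.16, Padj = 1.5e-06), let-7f-5p with 1.30 (SE 0.14, Padj = 7.4e-07), let-7g-5p with 1.22 (SE 0.12, Padj = 3.4e-07) and let-7i-5p with 0.51 (SE 0.13, Padj = 0.0040). Let-7e-5p fell by 1.23 (SE 0.15, Padj = 3.2e-06), let-7b-5p by 1.17 (SE 0.16, Padj = 1.3e-05), let-7c-5p by 0.89 (SE 0.16, Padj = 0.00014) and let-7a-5p by 0.49 (SE 0.13, Padj = 0.0035), while let-7d-5p had a log2FC of -0.16 (Padj = 0.30). This gave 4 members called higher and 4 lower, against 59.1% of all miRNAs called (22.4% higher and 36.7% lower). The call of let-7a-5p was lost without P5 replicate 2 (-0.26), with RLE size factors (-0.13), with DESeq2 (-0.13) and when only the 2 ages were fitted (-0.19), and that of let-7i-5p when totals left out miR-1a-3p and miR-1b-5p (0.22). With the GC trend removed, none of the 4 rises passed, and let-7f-5p (-0.21), let-7i-5p (-0.15) and miR-98-5p (-0.073) turned sign, so that 0 members were called higher (22.4% of all miRNAs) and 5 lower (32.8%). With library totals alone all 9 members were called lower and none higher, as 77.6% of all miRNAs were lower and 2.22% higher, and with upper-quartile factors 7 were called higher and none lower, beside 47.2% and 19.7% of all miRNAs. Values relative to the family, which need no such factor, are given below.

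Over the whole course, from newborn to adult, 6 members rose and 1 fell. Between P1 and P90, let-7b-5p rose with a log2FC of 1.13 (SE 0.16, Padj = 1.4e-05), let-7g-5p with 1.06 (SE 0.12, Padj = 1.5e-06), let-7f-5p with 1.00 (SE 0.14, Padj = 1.0e-05), let-7c-5p with 0.85 (SE 0.16, Padj = 0.00016), let-7d-5p with 0.85 (SE 0.13, Padj = 2.2e-05) and let-7a-5p with 0.60 (SE 0.13, Padj = 0.00062). Let-7e-5p fell by 0.53 (SE 0.15, Padj = 0.0057), and let-7i-5p (-0.14, Padj = 0.37) and miR-98-5p (0.32, Padj = 0.092) did not pass. These calls stand beside 66.4% of all miRNAs called, 25.2% higher and 41.2% lower. The median log2FC of the members was 0.85, whereas that of all miRNAs tested was -0.72. The direction depended on the scaling. With library totals alone all 9 members were called lower and none higher, as 80.0% of all miRNAs were lower and 4.45% higher, and the median of all miRNAs moved to -2.97, while with upper-quartile factors it moved to 1.18. With the GC trend removed, let-7f-5p (0.12) and let-7a-5p (-0.023) no longer passed. The let-7e-5p call was lost without P5 replicate 2 (-0.30), with RLE size factors (-0.19) and with DESeq2 (-0.21), and that of let-7a-5p when the totals left out miR-1a-3p and miR-1b-5p (0.14). Without P5 replicate 2, and also without the 3 P14 libraries (an alternative chosen after seeing the data), miR-98-5p was called higher, with 0.55 and 0.45, as it was with RLE size factors (0.66), DESeq2 (0.64), upper-quartile factors (2.19) and the 2 ages alone (0.44). It was called lower with totals alone (-1.98) and with the GC trend removed (-0.56).

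**Figure D3:**
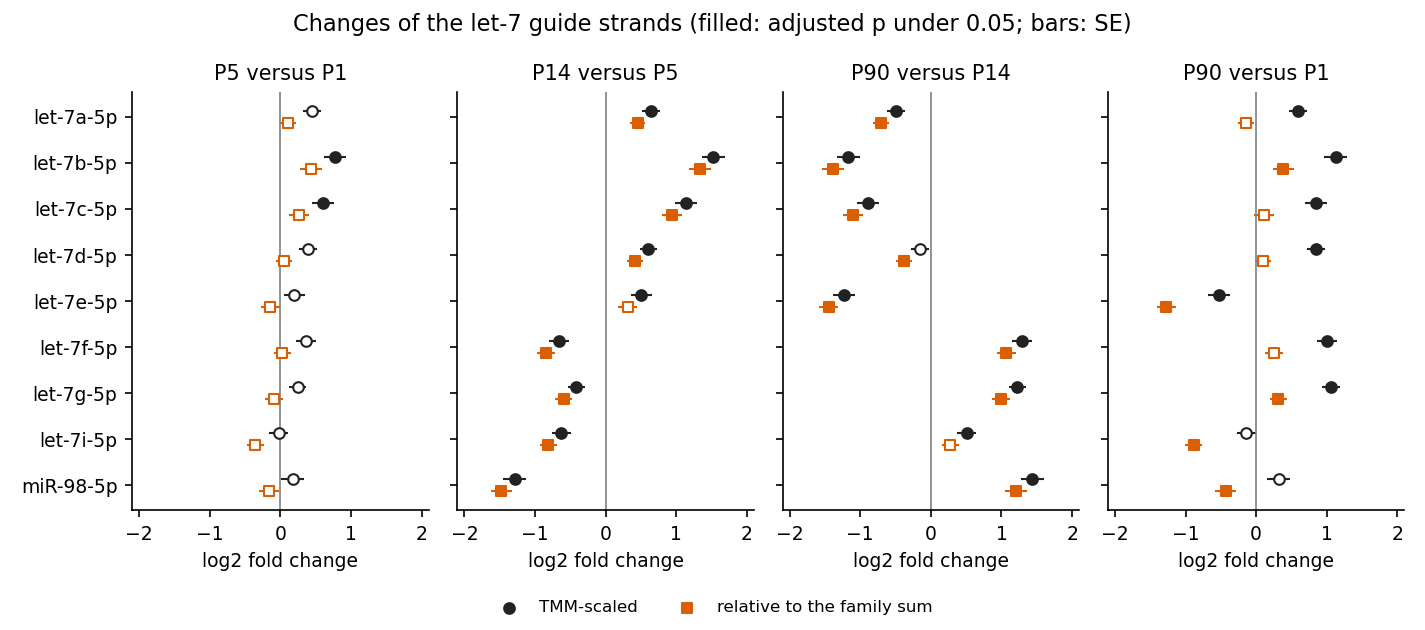
Log2 fold changes of the 9 members (rows) in 4 comparisons of ages (panels), with libraries scaled by TMM (circles) or by the summed let-7 guide counts (squares). Bars are SE and filled symbols have Padj under 0.05, and the signs of let-7f-5p, let-7g-5p, let-7i-5p and miR-98-5p are opposite to those of the other members at P14 versus P5 and, reversed, at P90 versus P14.

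To compare the members with each other independently of the library scaling, each was related to the summed counts of the 9 guide strands. Since the shares add up to the whole, a gain of one member is a loss of others. Let-7a-5p, let-7b-5p, let-7c-5p, let-7d-5p and let-7e-5p together made up 36.8% ± 1.72 of the family at P1 and 41.0% ± 1.13 at P5, but 65.7% ± 5.05 at P14 and 35.8% ± 5.18 in the adult (SD, n = 3). The 3 P14 libraries lay between 60.6% and 70.7%, and no library of another age exceeded 42.3%. Let-7f-5p alone changed from 29.7% ± 0.521 of the family at P5 to 16.5% ± 2.73 at P14 and 34.6% ± 2.90 at P90, and let-7c-5p from 11.5% ± 0.343 to 22.1% ± 2.20 and 10.3% ± 2.18.

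**Figure D4:**
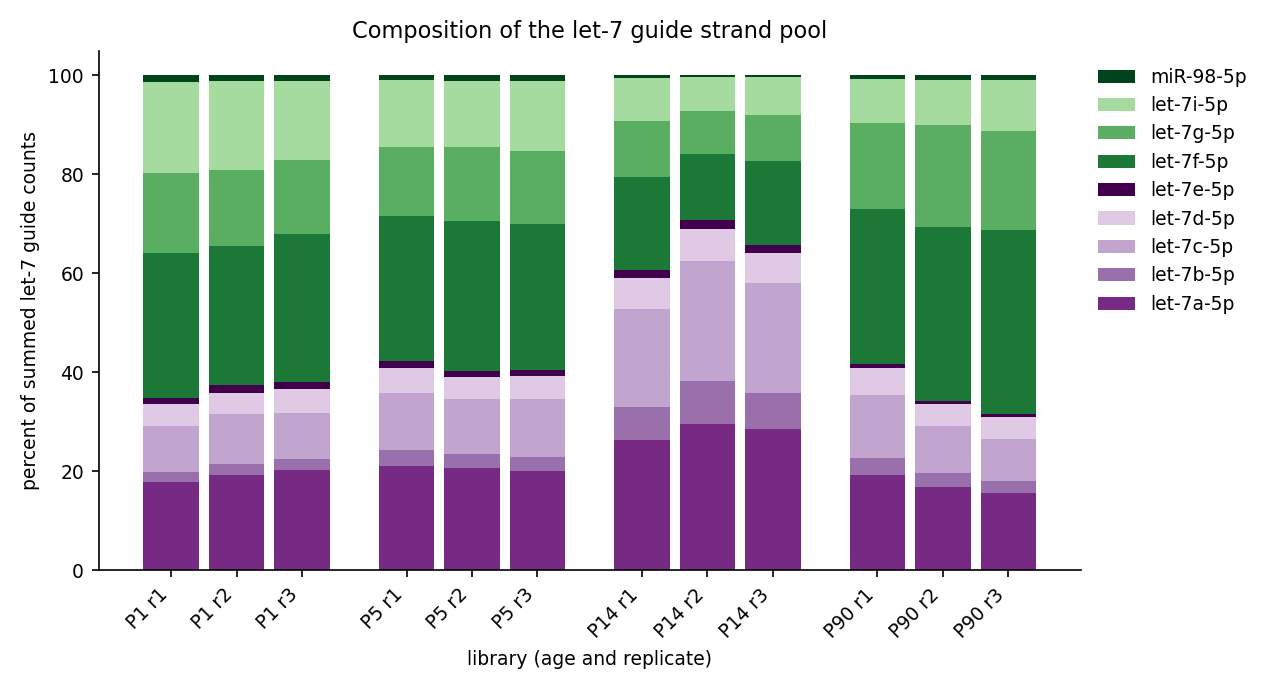
Percent of the summed let-7 guide counts held by each member (stacked bars) in each of the 12 libraries, with let-7a-5p to let-7e-5p in purple from the bottom and let-7f-5p, let-7g-5p, let-7i-5p and miR-98-5p in green above them. The purple members reach 60.6% to 70.7% in the P14 libraries and at most 42.3% in the others.

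The same model was fitted with this sum as the library size, over 812 miRNAs, and all 9 members changed relative to the family across the ages, where 73.8% of all miRNAs were called. From P1 to P5 no member passed the edgeR test, against 10.6% of all miRNAs called (0.862% higher and 9.73% lower), and 2 members had an unadjusted P under 0.05, let-7i-5p (-0.36, Padj = 0.070) and let-7b-5p (0.44, Padj = 0.083). DESeq2 was not run on this scale. From P5 to P14, let-7b-5p (1.34), let-7c-5p (0.95), let-7a-5p (0.45) and let-7d-5p (0.42) rose, and miR-98-5p (-1.48), let-7f-5p (-0.85), let-7i-5p (-0.81) and let-7g-5p (-0.59) fell, whereas let-7e-5p had a log2FC of 0.32 (Padj = 0.071). These 8 members stand beside 44.7% of all miRNAs called, 14.5% higher and 30.2% lower. From P14 to P90, miR-98-5p (1.21), let-7f-5p (1.07) and let-7g-5p (0.99) rose, all 5 members from let-7a-5p to let-7e-5p fell, by 0.38 (let-7d-5p) to 1.45 (let-7e-5p), and let-7i-5p had 0.28 (Padj = 0.060), beside 57.9% of all miRNAs called (17.9% higher and 40.0% lower). With the GC trend also removed (an alternative chosen after seeing the data), let-7f-5p (-0.24) and let-7g-5p (-0.14) did not pass from P5 to P14, where let-7e-5p did (0.61), and no member was higher from P14 to P90, with let-7f-5p at -0.0062, miR-98-5p at 0.13 and let-7g-5p at 0.19, against 17.7% of all miRNAs higher. The 5 falls from P14 to P90 remained.

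In the adult, let-7e-5p and let-7i-5p held a smaller part of the family than in the newborn. Relative to the family, let-7e-5p fell by 1.27 on the log2 scale (SE 0.14, Padj = 4.3e-07), let-7i-5p by 0.89 (SE 0.12, Padj = 6.6e-06) and miR-98-5p by 0.43 (SE 0.15, Padj = 0.017). Let-7e-5p made up 1.31%, 1.62% and 1.51% of the family in the P1 libraries and 0.686%, 0.587% and 0.566% in the P90 libraries. Let-7i-5p made up 18.4%, 18.0% and 15.9% at P1 and 8.83%, 9.23% and 10.2% at P90. The 2 ages overlapped for neither, as for 74.8% of all miRNAs related to this sum. Let-7b-5p (0.39, SE 0.15, Padj = 0.036) and let-7g-5p (0.31, SE 0.12, Padj = 0.034) rose relative to the family, and let-7a-5p (-0.15), let-7c-5p (0.11), let-7d-5p (0.10) and let-7f-5p (0.25) did not pass. These 5 of 9 members stand beside 68.7% of all miRNAs called, 15.9% higher and 52.8% lower. The falls of let-7e-5p and let-7i-5p held without each of the 12 libraries. That of miR-98-5p was lost without P1 replicate 1 (-0.39) or P90 replicate 1 (-0.35). Neither rise was as stable: let-7b-5p was lost without P1 replicate 1 (0.36), 2 (0.38) or 3 (0.42) or P90 replicate 1 (0.21), and let-7g-5p without P1 replicate 1 (0.34), 2 (0.30) or 3 (0.29) or P90 replicate 2 (0.27) or 3 (0.28).

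Ratios of members within a library need no scaling, and for some the libraries of each age stood apart. The ratios were not corrected for the trend over GC content described below. Members of a pair can differ in GC content, as let-7g-5p (36.4%) and let-7i-5p (40.9%) do. The ratio of let-7g-5p to let-7i-5p was 0.895 ± 0.0486 at P1 and 1.08 ± 0.0352 at P5, then 1.24 ± 0.0427 at P14 and 2.05 ± 0.141 in the adult (SD, n = 3), with no overlap between ages. For let-7e-5p to let-7a-5p the ratio was 0.0773 ± 0.00552, 0.0650 ± 0.00569, 0.0592 ± 0.000324 and 0.0355 ± 0.000697 in the same order. It was thus lower at each later age, again with no overlap. For other pairs the P14 libraries stood apart. Let-7f-5p to let-7a-5p, whose hairpins let-7f-1 and let-7a-1 lie 261 bases apart on chromosome 13, had a ratio of 1.44 ± 0.0515 at P5, 0.589 ± 0.128 at P14 and 2.03 ± 0.369 at P90. Let-7d-5p, from the same locus, stayed between 0.212 and 0.285 of let-7a-5p in all 12 libraries. On the X chromosome, miR-98-5p was 0.0408 ± 0.00208 of let-7f-5p at P1, 0.0231 ± 0.000142 at P14 and 0.0253 ± 0.00135 at P90. Let-7b-5p was 0.230 ± 0.0160 of let-7c-5p at P1 and 0.339 ± 0.0227 at P14.

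**Figure D5:**
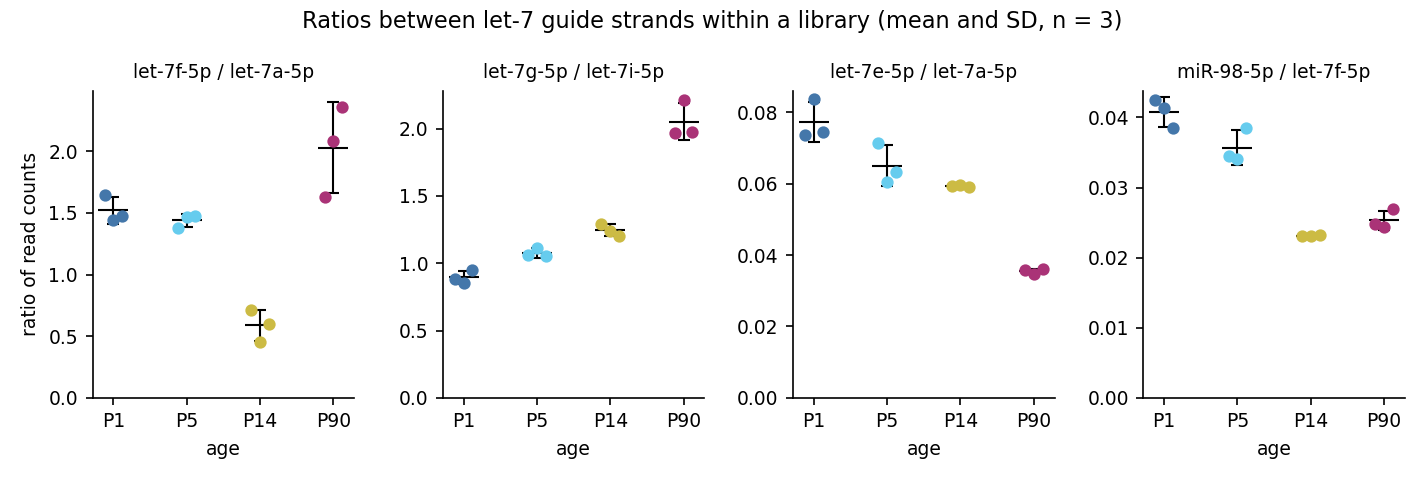
Ratios of read counts between members within each library (points) by age, with mean and SD (n = 3) and axes from 0. No trend over GC content was removed. Let-7g-5p to let-7i-5p is higher at every later age, let-7e-5p to let-7a-5p is lower, and let-7f-5p to let-7a-5p has its lowest values, 0.457 to 0.713, at P14.

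The 2 sets seen at P14 were compared with the sequences. All 5 members that rose from P5 to P14 have GG at bases 11 and 12, and the 4 that fell do not, as shown by the capitals in 4 of the sequences:

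let-7a-5p, rose: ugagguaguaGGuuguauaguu

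let-7f-5p, fell: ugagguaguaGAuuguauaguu

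let-7g-5p, fell: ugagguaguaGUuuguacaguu

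miR-98-5p, fell: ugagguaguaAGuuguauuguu

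This split was noticed after the values were seen, so it is a description and carries no test. Members of equal GC content lay in both sets: let-7a-5p and let-7g-5p both have 36.4% GC. Let-7c-5p, let-7d-5p and let-7e-5p have 40.9%, as does let-7i-5p. The highest GC content, 45.5% in let-7b-5p, was in the set that rose. The lowest, 31.8% in let-7f-5p and miR-98-5p, was in the set that fell. What part GC content had in the split was not tested. Among all miRNAs tested with a RefSeq sequence, the 58 with GG at these bases had a median log2FC of 0.10 from P5 to P14. That of the 630 others was -0.06, and from P14 to P90 the medians were -1.21 and -0.55. From P5 to P14 single values ranged from -3.29 to 3.15 with GG and from -7.58 to 8.65 without. These medians carry no test and were not adjusted for GC content, whose part in them was not tested.

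The levels of miRNAs followed GC content in opposite senses at these ages. Over 309 miRNAs averaging 10 CPM or more, the log2 level relative to the mean of the libraries rose by 0.38 to 0.56 for each 10 points of GC in the P14 libraries and fell by 0.38 to 0.60 in the P90 libraries, while the slopes at P1 and P5 were between -0.01 and 0.08. No label names a preparation batch, so that a difference in preparation between ages and the ages themselves cannot be told apart. With this trend removed, the 5 rises from P5 to P14 remained (0.80 to 1.63), as did the falls of let-7i-5p (-0.34, Padj = 0.047) and miR-98-5p (-0.62, Padj = 0.0025), and those of let-7f-5p and let-7g-5p did not. From P14 to P90, let-7a-5p, let-7b-5p, let-7c-5p, let-7d-5p and let-7e-5p were then lower, with log2FC from -1.89 to -0.81, and none of the other 4 passed, with values of -0.21 for let-7f-5p to 0.14 for let-7g-5p. From P1 to P90, let-7b-5p (1.00), let-7c-5p (0.48), let-7d-5p (0.47) and let-7g-5p (0.42) were higher, let-7e-5p (-0.90), let-7i-5p (-0.52) and miR-98-5p (-0.56) were lower, and let-7f-5p (0.12) and let-7a-5p (-0.02) did not pass. Relative to the family and with the trend removed (an alternative chosen after seeing the data), the falls of let-7e-5p (-1.50), let-7i-5p (-1.12) and miR-98-5p (-0.92) from P1 to P90 were larger than without this step, whereas let-7b-5p (0.28) and let-7g-5p (-0.05) no longer passed and let-7a-5p fell (-0.51).

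The miRNAs that share a locus with let-7 hairpins were examined next. They belong to the miR-99/100 and miR-125 families, the latter related to worm lin-4. Of 11 such arms, all tested, none was called from P1 to P5 with edgeR, nor had any an unadjusted P under 0.05 (0 arms). Only 4.45% of all miRNAs were called in that comparison, so the absence of calls does not set these arms apart. From P5 to P14, 6 rose and 1 fell, with a median log2FC of 0.53, from P14 to P90, 2 rose and 6 fell (median -0.62), and from P1 to P90, 5 rose and 3 fell (median 0.37). The shares of all miRNAs called were 44.4%, 59.1% and 66.4% in these comparisons, and their medians -0.07, -0.55 and -0.72. The 1 fall from P5 to P14 (-2.53) and 1 of the 2 rises from P14 to P90 (2.37) were of miR-99a-3p. This arm was near the floor, with 1 to 6 counts in a P14 library and 4 to 9 in a P90 library. From P1 to P90, miR-100-5p, near let-7a-2, rose with 1.65 and miR-99a-5p, near let-7c-1, with 0.93, and miR-125b-5p (0.37) and miR-125a-5p (0.39) rose less. Of the let-7e locus, miR-99b-5p fell by 1.00 and let-7e-5p by 0.53. The ratio of miR-99b-5p to let-7e-5p was 2.07 ± 0.0790 at P1 and 1.52 ± 0.00620, 1.60 ± 0.305 and 1.50 ± 0.102 at the later ages, while that of miR-125a-5p to let-7e-5p was 2.61 ± 0.241 at P1 and 4.94 ± 0.477 at P90, without overlap.

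Of the 12 passenger strands from the other arm of the hairpins, 3 rose and 4 fell from P5 to P14, and 7 rose and 1 fell from P1 to P90, with a median log2FC of 0.85. These 7 and 8 of 12 stand beside 44.4% and 66.4% of all miRNAs tested that were called. Those called higher were 18.0% and 25.2% of all miRNAs tested. From P5 to P14, let-7b-3p (1.28), let-7d-3p (1.21) and let-7e-3p (0.87) rose and miR-98-3p (-1.71) fell as their guide strands did. In contrast, let-7a-1-3p (-1.06) fell while let-7a-5p rose. Both let-7c-2-3p (-1.15) and let-7c-1-3p (-0.64, Padj = 0.046) likewise fell while let-7c-5p rose. Let-7a-1-3p and let-7c-2-3p have one and the same sequence, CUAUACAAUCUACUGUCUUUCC, and the ratio of let-7c-2-3p to let-7a-1-3p counts was 0.840 to 1.05 in all libraries, so their reads could not be assigned to a locus.

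Near-identical entries were also compared. Let-7j, a separate entry of the table whose sequence begins as let-7i-5p with the difference G8U, had 3.83% to 4.41% of the counts of let-7i-5p in all 12 libraries. Its log2FC was -0.60 from P5 to P14 and 0.54 from P14 to P90, compared with -0.63 and 0.51 for let-7i-5p. Whether reads of one were counted for the other was not tested. Let-7a-5p differs by 1 base from each of let-7c-5p, let-7e-5p and let-7f-5p. How the counting divided reads that match several loci is not given in the sources used here, and the levels of such members are uncertain to that extent.

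The miRNAs whose course was most like that of the summed family were sought among 197 others averaging 100 CPM or more. Over the 12 libraries, the highest Pearson r with the log2 summed level were those of miR-195a-5p (0.960), miR-133a-3p (0.944), miR-378c (0.939), miR-151-5p (0.935) and miR-378d (0.934). MiR-133a-3p is a muscle miRNA. Its mean level was 5438 CPM at P1 and 60563 CPM at P90, and that of miR-195a-5p was 43.9 and 524 CPM, whereas the summed level of the family was 46886 and 78641 CPM. These correlations were computed over 4 ages of 3 libraries under one scaling and describe a shared course only.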

How the data were processed

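Total RNA of wild-type quadriceps was converted to small RNA libraries using a NEXTflex kit. The authors kept reads of 10 to 35 bases with cutadapt 1.18, aligned them to GRCm38 with Bowtie2 2.4.1 and assigned them to mature miRNAs of miRBase by featureCounts 2.0.1. Raw, unnormalized read counts were deposited, and strand and multi-mapping options are not given in the sources used here. How reads of near-identical guide strands were divided is therefore unknown. Sample titles gave the group and replicate number of each library. A P1 library held 25472336 to 26783448 counts and a P5 library 30648679 to 33771032, compared with 20363495 to 24046074 for P14 and 43776307 to 53126984 for P90. No pair of replicates agreed within sampling noise (chi-square of 105 to 750 per degree of freedom), so none was treated as a repeat deposit of another. This does not show from which animals they came.

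Counts were tested with edgeR 4.0.16 in R 4.3.3. filterByExpr kept 809 miRNAs, libraries were scaled by TMM, and a quasi-likelihood model with a mean per age was fitted to all 12 libraries. F-tests were 2-sided, P values were adjusted by Benjamini-Hochberg over all miRNAs tested, and Padj under 0.05 was counted as a call. SE were derived from the F statistic. The fit was repeated with the summed counts of the 9 guide strands as library size. Shares and ratios carry no test. The fitting script was tested on simulated data. RefSeq sequences were matched by name for 1675 of 1966 miRNAs, including all 9 members and 85.0% of the miRNAs tested, and GENCODE annotation was used for host genes only.

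The miRNAs named were the 9 members, 11 arms of neighbouring hairpins, 12 passenger strands, others with the same seed and the 5 most similar in course. Marker miRNAs of muscle, endothelium, smooth muscle, red blood cells, leukocytes, neurons and liver were also read, and all were detected above 3 counts in every age. Summed levels of the last 4 tissues were at most 467 CPM, 475 CPM, 342 CPM and 366 CPM in any library. Members and lists were chosen with earlier results of these data known. Alternatives comprised RLE, upper-quartile and total-count scaling, totals without miR-1, no filter, DESeq2 1.42.0, fits of 2 ages, a replicate block, removal of the GC trend and leaving out each library.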

Additional observations from a re-analysis of the deposited data

How the results depend on the processing

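Beyond 432 member values from fits that left out 1 library, of which 410 kept direction and call, 342 came from other settings, of which 269 did. Relative to the family, the same was so for 414 of 432 and 56 of 72. Each of the 108 family shares recomputed without 1 library moved by less than the SD of its 3 libraries. With 3 libraries a mean cannot move by more, so this outcome was fixed in advance and does not show stability. The cause of the changes below was not tested.

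From P1 to P5, the number of members called higher (2) was 4 with RLE factors (3.96% of all miRNAs), 0 with totals alone (0.371%), 1 with totals without miR-1a-3p and miR-1b-5p (1.22%), 1 with the GC trend removed (2.60%), 5 with the 2 ages alone (5.26%), 5 with DESeq2 (44 of 1542 miRNAs) and 0 to 3 without 1 library. Let-7i-5p turned to 0.022 (RLE), 0.0070 (upper quartile) and 0.013 (DESeq2) and ranged from -0.12 to 0.018 without 1 library, and totals alone gave -0.11 for let-7e-5p, -0.054 for let-7g-5p and -0.12 for miR-98-5p. From P5 to P14, removal of the GC trend left 2 members lower and turned let-7g-5p to 0.065.

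From P14 to P90, totals alone gave 0 members higher and 9 lower, with let-7f-5p at -0.95, let-7g-5p at -1.02, let-7i-5p at -1.74 and miR-98-5p at -0.82. Upper-quartile factors gave 7 higher and 0 lower, with let-7a-5p at 1.09, let-7b-5p at 0.41, let-7c-5p at 0.69, let-7d-5p at 1.42 and let-7e-5p at 0.35. Let-7d-5p was 0.21 with RLE factors, 0.14 with the 2 ages alone, 0.20 with DESeq2 and -0.25 to 0.072 without 1 library. With the GC trend removed 0 members were higher, and let-7f-5p was -0.21, let-7i-5p -0.15 and miR-98-5p -0.073.

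From P1 to P90, totals alone gave 0 higher and 9 lower, with let-7a-5p at -1.66, let-7b-5p at -1.10, let-7c-5p at -1.39, let-7d-5p at -1.41, let-7f-5p at -1.29, let-7g-5p at -1.23 and miR-98-5p at -1.98. The number lower (1) was 0 with RLE (37.6% of all miRNAs), upper-quartile factors (23.7%) and DESeq2 (310 of 1542), 2 with totals without miR-1 (46.9%), 3 with the GC trend removed (40.5%) and 0 to 1 without 1 library. Let-7i-5p was 0.20 (RLE), 1.73 (upper quartile), 0.18 (DESeq2) and -0.24 to 0.088 without 1 library. Let-7e-5p was 1.36 with upper-quartile factors. MiR-98-5p was -0.15 with totals without miR-1 and -0.56 with the GC trend removed, where let-7a-5p was -0.023. The median of all miRNAs was -0.72 with TMM, -0.37 with RLE, -2.97 with totals, 1.18 with upper-quartile factors and -1.06 with totals without miR-1.

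Relative to the family, 0 to 1 members were called higher from P1 to P5 without 1 library, and 1 lower with the GC trend removed. This removal left 2 lower from P5 to P14 (30.0% of all miRNAs). From P14 to P90 it left 0 higher (17.7%), with let-7f-5p at -0.0062 and let-7i-5p at -0.24. From P1 to P90 it left 0 of 2 higher (123 of 812 miRNAs), with let-7c-5p at -0.12, let-7d-5p at -0.13, let-7f-5p at -0.24 and let-7g-5p at -0.054. Without 1 library the number higher was 0 to 3, let-7c-5p ranged from -0.076 to 0.22 and let-7d-5p from -0.00052 to 0.15. The share of the family in the counts was 11.9% at P1 and 13.8% at P5, and 15.0% at P14 and 14.4% in the adult, without miR-1a-3p and miR-1b-5p.

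Deviations of same-numbered libraries from their age mean had correlations from -0.344 to 0.237 (median 0.02, 18 pairs). For other pairs of libraries they ran from -0.379 to 0.420 (median -0.01, 36 pairs). Deviations within an age are tied through their mean, so these values cannot decide whether the replicate numbers pair samples. With the replicate block the calls of all miRNAs from P1 to P5 changed from 36 to 15, and those of members from 2 to 1 (let-7c-5p, 0.60). Relative to the family, the members called higher from P1 to P90 were 0 in place of 2 with the block. No other count of member calls changed by over 1.5 times with the block.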
